A study of Homo sapiens with 2 samples.

Results

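The nuclear genes for the subunits of respiratory complex I were followed in PC-3 cells, an androgen-independent human prostate cancer cell line, after exposure to riccardin D (RD), a liverwort-derived compound of the macrocyclic bisbibenzyl class. Members were the probe sets paired with a single gene symbol made of NDUFA, NDUFB, NDUFC, NDUFS or NDUFV and a digit, together with NDUFAB1. A probe set is a group of short oligonucleotides that reads a transcript on the array. The rule found 62 of 54613 probe sets, which stood for 33 of 19775 named genes. Of 37 nuclear subunit genes listed for the enzyme, 3 (NDUFC2, NDUFS5 and NDUFS8) were read only by probe sets that the annotation pairs with several genes, which were left out, and 1 was not analysed here.

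A control culture and a culture given RD at 10 µmol/L for 24 h had each been measured, as total RNA, on a single HG-U133 Plus 2.0 array from Affymetrix. The control received the DMSO vehicle by the treatment protocol, although its source name describes it as not treated. The dose is the one given by the study, since the sample labels state none. Both conditions used the same line in medium with fetal bovine serum, so the data describe a single line, without a second culture of either condition. KRT18, a keratin of simple epithelium, had a signal of 10224.2 in control and 15416.6 in RD cells. KRT8 was read at 113.8 and 159.3, and the epithelial genes KRT19 and EPCAM lay below 66.9 on both arrays. PC-3 cells are usually described as expressing both, so these readings go against the named line, and the identity of the cultures was not tested. The value of 66.9, the median of all signals of both arrays, is called the floor here. Of the prostate luminal genes, KLK3 was read at 131.4 and 230.6, and KLK2 and TMPRSS2 were under the floor. Of 5 genes of blood, endothelium and fibroblasts, PTPRC, VWF and COL3A1 were under the floor on both arrays, PECAM1 was read at 121.6 and 72.7, and COL1A1 at 370.6 and 325.8.

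Complex I is the entry point of electrons from NADH into the respiratory chain of the inner mitochondrial membrane. Its matrix arm oxidises NADH on a flavin and passes electrons along iron-sulfur clusters to ubiquinone, and its membrane arm pumps protons. The central subunits of the membrane arm are the ND proteins, encoded by mitochondrial DNA, whereas all NDUF subunits are encoded in the nucleus and imported. The core NDUF subunits include those that carry the flavin and the clusters. The accessory subunits surround the core and are needed for its assembly and stability. Assembly factors of the NDUFAF family help to build the enzyme but are not part of it.

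Every measured subunit gene gave less signal with RD than in control cells. Taking the brightest probe set for every gene, all 33 signals were lower in RD, with differences in log2 signal (RD minus control) from -1.85 for NDUFB7 to -0.12 for NDUFA10 and a median of -0.78, which corresponds to 0.584 of the control signal. Over all 12818 named genes at or above the floor, the median was -0.0022 and 50.1% were lower. At least 2-fold lower signals were found for 10 of the 33 genes (30.3%), against 13.3% of all named genes, and no subunit gene was at least 2-fold higher, against 12.1% of all named genes. At 1.5-fold, 23 of the 33 were lower (69.7%), against 24.7%. At 3-fold, 2 of the 33 were lower, about the same share as the 6.05% of all named genes. All 33 genes passed the floor, and their signals on both arrays also exceeded 377.4, the 75th percentile of all signals. Among the 3555 genes with a mean signal at least as high as that of the dimmest subunit gene, 50.5% were lower, 9.87% at least 2-fold lower, 9.48% at least 2-fold higher and 22.8% at least 1.5-fold lower. With 1 array per condition no test of the treatment could be made, and whatever else set the cultures apart cannot be told apart from RD. Since these are bulk signals on arrays scaled to a common mean, less transcript per cell and fewer cells holding it cannot be told apart, and a lower signal is relative to the other transcripts of the sample.

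**Figure D1:**
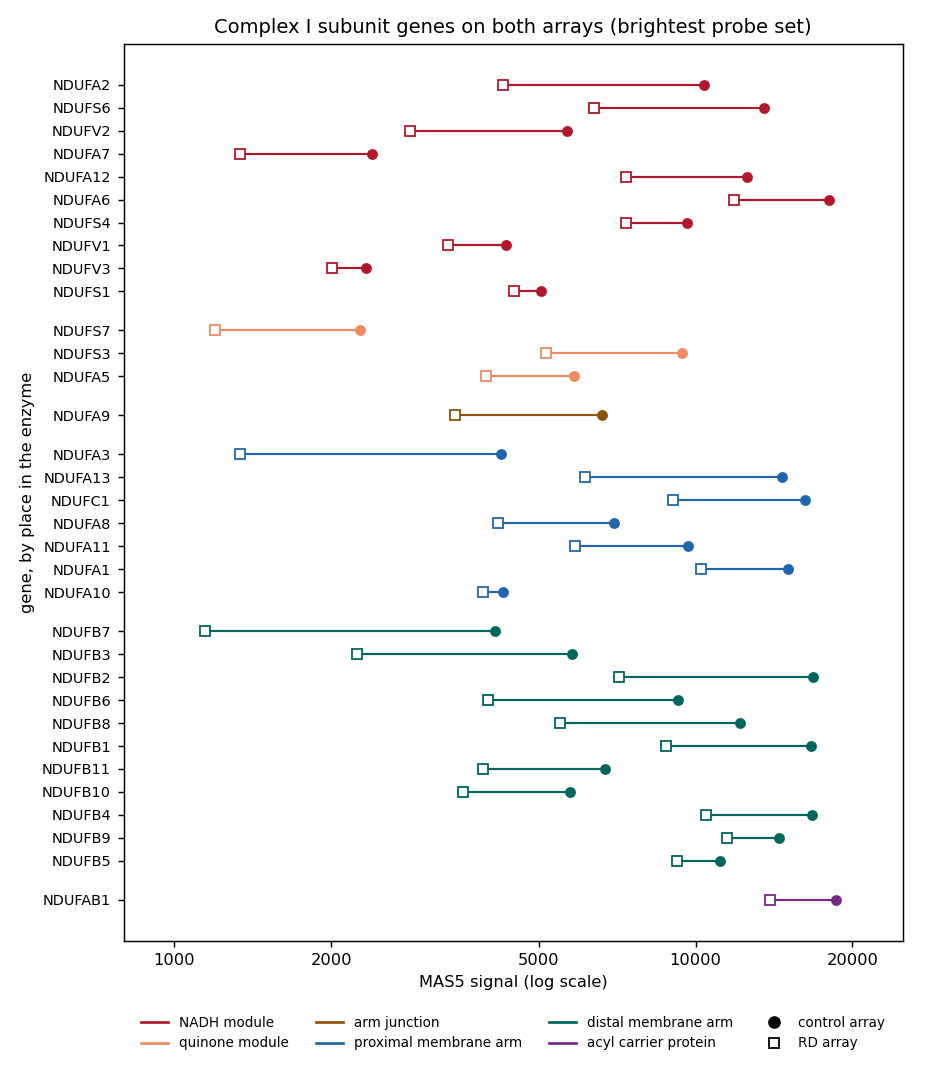
MAS5 signal (horizontal, log scale) of the brightest probe set of each of 33 complex I subunit genes, grouped by place in the enzyme, in control (filled circles) and RD (open squares), 1 array each with no error bars. The square lies to the left of the circle in every row, with the longest line for NDUFB7 (4120 to 1144.7) and the shortest for NDUFA10 (4268.6 to 3916.3).

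**Figure D2:**
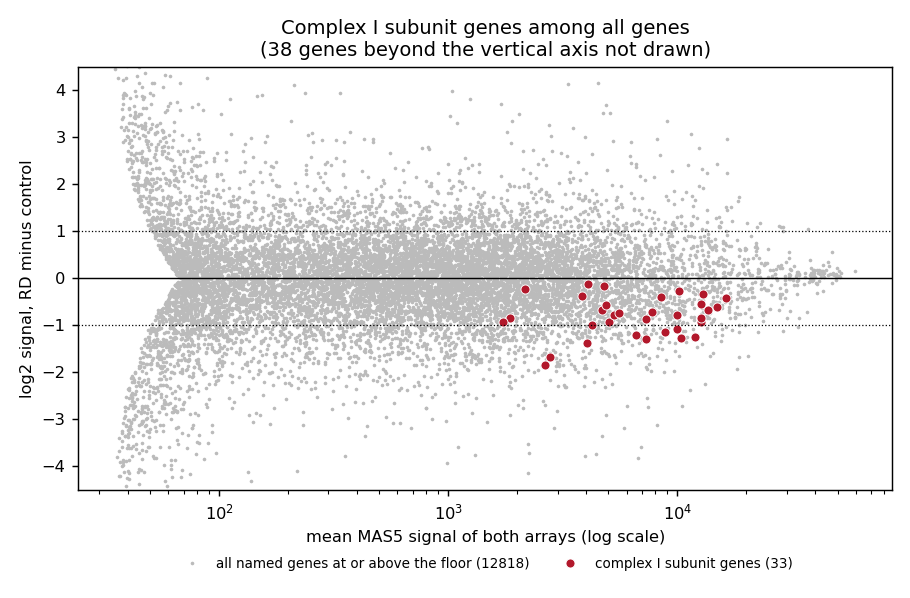
Difference in log2 signal (RD minus control, vertical) against the mean signal of both arrays (horizontal, log scale) for the named genes at or above the floor (grey) and the 33 complex I subunit genes (red). Dotted lines mark 2-fold. All red points lie below 0, 10 of them at or below -1, where 13.3% of all named genes lie.

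In place of a replicate error, the scatter between probe sets of the same gene was computed. Its SD was 0.29 on the log2 scale over 6685 probe sets of 2698 genes whose signals both reached the 75th percentile. The differences of 23 subunit genes were larger than 2 such SDs (0.58), those of 6 lay between 1 and 2 SDs, and those of 4 (NDUFA10, NDUFS1, NDUFV3 and NDUFB5) were within 1 SD of 0. Shares over all genes were not computed at these cut-offs. At 1.5-fold, which is close to 2 SDs, 1450 of 7050 named genes with both signals at the 75th percentile were lower. The quartiles of these 7050 were -0.46 and 0.44, so many genes outside the family also passed 1 SD. Between the 33 genes the SD was 0.42. This scatter covers the reading of the probe sets and not the spread between cultures. Over the 12 bright probe sets of the 6 subunit genes read more than once at that level, the SD was 0.13. Within these 6 pairs the spread was smallest for NDUFB8, at -1.14 and -1.17, and largest for NDUFA6, at -0.60 and -0.86. NDUFA11 was at -0.72 and -0.63, NDUFB10 at -0.68 and -0.85, and NDUFB2 at -1.24 and -1.41. NDUFS1 was at -0.17 by its brightest probe set, within 1 SD (0.29) of 0, and at -0.41 by the other, beyond it.

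The stretches of promoter just upstream of the start sites are printed for the members with the largest and the smallest differences that had a window in the RefSeq table (GRCh38.p14). They are shown so that the ends of the range can be compared. Capitals mark letters that match the motifs of NRF1 (GCGCA, any base, then GCGC), ETS factors (CCGGAAG) or YY1 (AAGATGGC), searched on both strands, and each stretch holds the 120 bases before the start site.
NDUFB7, log2 difference -1.85, chr19:14572067-14572186, minus strand: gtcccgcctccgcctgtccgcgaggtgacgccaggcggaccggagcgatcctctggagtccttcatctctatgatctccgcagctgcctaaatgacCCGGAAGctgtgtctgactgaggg
NDUFA3, log2 difference -1.66, chr19:54102735-54102854, plus strand: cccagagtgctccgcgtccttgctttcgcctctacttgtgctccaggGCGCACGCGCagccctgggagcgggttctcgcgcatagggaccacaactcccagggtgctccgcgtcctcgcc
NDUFS1, log2 difference -0.17, chr2:206159445-206159564, minus strand: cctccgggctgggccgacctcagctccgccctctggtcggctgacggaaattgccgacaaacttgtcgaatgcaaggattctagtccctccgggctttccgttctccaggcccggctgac
NDUFA10, log2 difference -0.12, chr2:240025343-240025462, minus strand: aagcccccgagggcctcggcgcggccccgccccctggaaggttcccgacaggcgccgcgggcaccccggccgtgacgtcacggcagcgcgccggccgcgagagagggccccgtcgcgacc
The stretch of NDUFB7 holds an ETS match and that of NDUFA3 an NRF1 match, and those of NDUFS1 and NDUFA10 hold none of the 3 motifs. This depends on where the stretches end, since the longer window searched for NDUFS1 holds an ETS match further upstream, on the other strand. That of NDUFA10 holds none of the 3. Only 3 of the 7 motifs searched are marked. The stretch of NDUFA10 also holds TGACGTCA, and those of NDUFA10 and NDUFS1 hold GGGCGG on the other strand. The longer window of NDUFB7 holds GGGCGG too, and that of NDUFA3 does not.

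The genes of the NADH module, the tip of the matrix arm where NADH is oxidised, were lower in 10 of 10 cases, with a median log2 difference of -0.69. At least 2-fold lower were 3 of them. Over all named genes, 50.1% were lower and 13.3% at least 2-fold lower. NDUFA2, an accessory subunit with a thioredoxin-like fold, had a signal of 10384.8 in control and 4274.6 in RD cells (2.43-fold lower). NDUFS6, a zinc-binding accessory subunit, was read at 13560.7 and 6382.4 (2.12-fold lower). The core subunit gene NDUFV2, whose product carries an iron-sulfur cluster beside the flavin, stood just past the 2-fold line, at 5668.7 and 2828.3 (2.00-fold lower). The other core genes of this module lay closer to control. NDUFV1, which encodes the subunit that binds the flavin and NADH, was read at 4327.7 and 3352.2, which is 0.775 of control. NDUFS1, the largest subunit and the holder of several clusters, was read at 5055.6 and 4489.3, which is 0.888 of control. NDUFV3 was at 2331.8 and 2006.1 (0.860 of control). NDUFS4, an accessory subunit that joins late in assembly, was at 0.764 of control, and NDUFA7, NDUFA12 and NDUFA6 were at 0.557, 0.586 and 0.658.

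The quinone module lies at the base of the matrix arm, where electrons reach ubiquinone. Its 3 measured genes were all lower (50.1% of all named genes were), with a median log2 difference of -0.86. None was past 2-fold, against 13.3% of all named genes. NDUFS7, which carries the last cluster before the quinone, was read at 2270.7 in control and 1198 in RD cells (1.90-fold lower). NDUFS3, a core subunit, was read at 9409.6 and 5171.3 (1.82-fold lower), and the accessory gene NDUFA5 at 5844.2 and 3956.1 (1.48-fold lower). NDUFA9, a nucleotide-binding accessory subunit where both arms meet, was read at 6609.5 and 3452.5 (1.91-fold lower). The 5 measured core genes had a median log2 difference of -0.86 and the 28 accessory genes one of -0.77, a difference that was not tested.

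In the proximal part of the membrane arm, all 7 measured genes were lower (50.1% of all named genes were), with a median log2 difference of -0.74. NDUFA3, a small membrane subunit, differed most, from 4236.5 to 1337.7 (3.17-fold lower). NDUFA13, also known as GRIM-19 and described as a partner of STAT3 besides its place in the enzyme, was read at 14665.3 and 6125.9 (2.39-fold lower). At the other end, NDUFA1, an X-linked subunit, was at 15037.6 and 10240.8 (0.681 of control), and NDUFA10, which has the fold of a nucleoside kinase, was at 4268.6 and 3916.3 (0.917 of control). NDUFC1, NDUFA8 and NDUFA11 lay between them, at 0.558, 0.600 and 0.606 of control.

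The distal part of the membrane arm, made of the NDUFB subunits around the outer proton pumps, was lower in 11 of 11 genes, with a median log2 difference of -0.93. At least 2-fold lower were 5 of these 11. Over all named genes, 50.1% were lower and 13.3% at least 2-fold lower. NDUFB7, a cysteine-rich subunit on the intermembrane side, had the largest difference of all members, from 4120 to 1144.7 (3.60-fold lower). NDUFB3 was read at 5796.6 and 2238.1 (2.59-fold lower) and NDUFB2 at 16834.7 and 7133.2 (2.36-fold lower). NDUFB6 was read at 9237.2 and 3997.4 (2.31-fold lower) and NDUFB8, often used as a marker of assembled complex I, at 12160.2 and 5504.4 (2.21-fold lower). NDUFB1, NDUFB11, NDUFB10 and NDUFB4 lay between 0.526 and 0.625 of control. The smallest differences in this arm were those of NDUFB9, at 14450.9 and 11486.9 (0.795 of control), and NDUFB5, at 11140 and 9205.9 (0.826 of control). NDUFAB1, the mitochondrial acyl carrier protein, which sits in both arms and also serves fatty acid synthesis and iron-sulfur cluster formation, was read at 18606.1 and 13896.1 (0.747 of control).

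The dimmer probe sets of these genes did not all follow the bright ones. Of the 62 probe sets, 39 reached the 75th percentile on both arrays, and all 39 were lower in RD. By the less strict rule of reaching the floor on at least 1 array, 49.0% of 24934 single-gene probe sets were lower. Of 7050 named genes at the 75th percentile on both arrays, 3500 were lower. Another 16 reached the floor on at least 1 array, of which 7 were lower and 9 higher, with a median log2 difference of 0.08. Some of these 16 passed the floor only on the array where they read higher. For those the filter fixed the direction, so these counts and this median carry no weight on direction. The last 7 were under the floor on both arrays. A second probe set of NDUFA5 read 12.6 in control and 88.4 in RD cells, which is at least 1.32-fold higher against the floor. NDUFA11 had such a probe set at 23 and 106.3 (at least 1.59-fold higher), NDUFA7 at 18.1 and 79.7 (at least 1.19-fold) and NDUFS4 at 48.6 and 67.8 (at least 1.01-fold). NDUFS1 had 2 of them, at 57.6 and 127.3 (at least 1.90-fold) and at 34.3 and 93.2 (at least 1.39-fold), while 3 others read between 0.680 and 0.888 of control. In NDUFB8, NDUFB2 and NDUFA10, dim probe sets lay at 1.19, 1.09 and 1.03 of control. Others went the way of the bright ones, such as the second probe sets of NDUFC1, at 642.5 and 181.4 (3.54-fold lower), and of NDUFB7, at 136.2 and 51.8 (at least 2.04-fold lower). Of the 33 brightest probe sets, 18 bear a name suffix that marks sequence shared between transcripts, so related transcripts and processed pseudogenes can add to them. With only the probe sets that lack such a suffix, 24 genes were measured above the floor, and their median log2 difference was -0.65. Of these 24, 6 were at least 2-fold lower, against 13.9% of all named genes under the same rule. NDUFA11 was then read by its dim, higher probe set. NDUFA2, NDUFB1 and NDUFB7 were then also read by dim probe sets, which were lower, and NDUFB7 is among the 6.

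**Figure D3:**
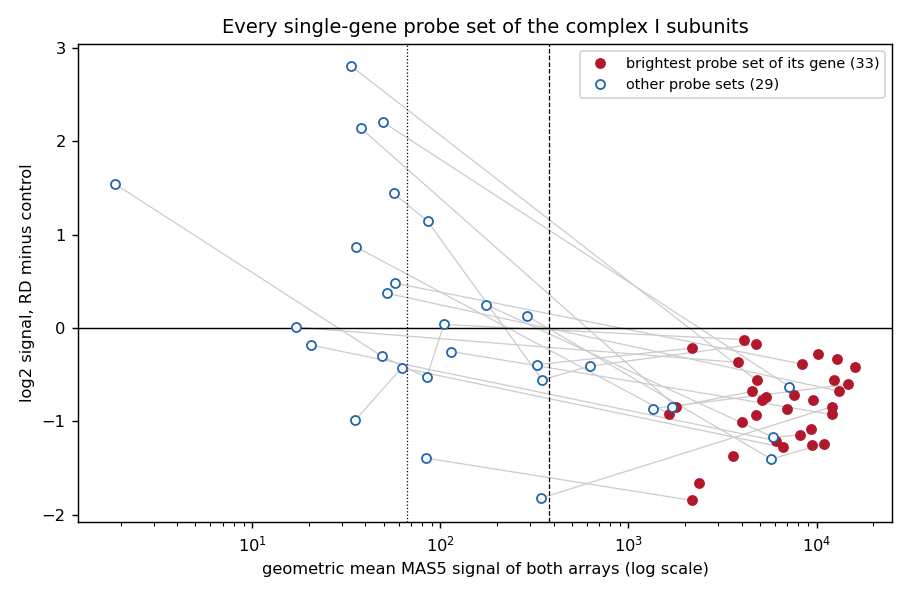
Difference in log2 signal (RD minus control, vertical) against the geometric mean signal of both arrays (horizontal, log scale) for all 62 probe sets of the subunit genes. Filled red points are the 33 brightest of each gene, open blue points are the others, grey lines join probe sets of a gene, and vertical lines mark the floor (dotted) and the 75th percentile (dashed); points to the right of the dashed line lie below 0, and those above 0 lie to its left.

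Of 16 assembly factors, the genes that build the enzyme, 10 had a lower and 6 a higher signal, where 50.1% of all named genes were lower. Only 1 was at least 2-fold lower (13.3% of all named genes) and none was past 2-fold the other way (12.1%), with a median log2 difference of -0.17. That 1 gene was NDUFAF5, which modifies NDUFS7 during assembly. It was read at 1043.6 in control and 472.1 in RD cells (2.21-fold lower). Of the 8 NDUFAF genes, 4 were lower and 4 higher. NDUFAF7 was read at 690.2 and 836.5, which is 1.21 of control, and NDUFAF2 at 5891.2 and 6891.3, which is 1.17 of control. The medians of subunits and assembly factors are -0.78 and -0.17, and with 1 array per condition their difference was not tested.

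The transcripts of complex I that come from mitochondrial DNA were read by single-gene probe sets for 3 of 7 genes. ND4 was at 49512.2 in control and 50917.5 in RD cells (1.03 of control), ND2 at 37435.2 and 34177.4 (0.913) and ND6, the ND gene on the opposite strand, at 5287.6 and 3033.9 (0.574). The other complexes of the respiratory chain were lower in every measured gene at or above the floor (against 50.1% of all named genes). These were 3 genes of complex II (median log2 difference -0.72), 7 of complex III (-0.75), 10 of complex IV (-0.54) and 15 of the ATP synthase (-0.54). The largest differences among them were those of ATP5MC1, a gene for the rotor ring, from 2982.4 to 706.8 (4.22-fold lower), and of COX7B, from 15300.2 to 6393.3 (2.39-fold lower). COX6B1 (2.16-fold lower) and the ATP synthase inhibitor gene ATP5IF1 (2.37-fold lower) were the other genes past 2-fold. At least 2-fold lower were thus 2 of 10 genes of complex IV, 2 of 15 of the ATP synthase and none of complexes II and III, against 13.3% of all named genes.

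The genes that supply cofactors to complex I differed in both directions. Of 12 genes of iron-sulfur cluster synthesis, 8 were lower and 4 higher, with a median log2 difference of -0.37 (50.1% of all named genes were lower). Of the 12, 2 were at least 2-fold lower, against 13.3% of all named genes, and 1 at least 2-fold higher, against 12.1%. ISCA2, a late-acting cluster assembly factor, was read at 3901.6 in control and 1733.4 in RD cells (2.25-fold lower), and the cysteine desulfurase gene NFS1 at 1091.4 and 544.4 (2.00-fold lower). HSPA9, the mitochondrial HSP70, was read at 9575.4 and 20728.7 (2.16-fold higher). Of 4 genes of flavin supply, 1 was lower and 3 were higher, all short of 2-fold. The 3 genes of the disulfide relay and of AIFM1, which help to import subunits, lay between 0.679 and 0.861 of control.

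Genes that promote the expression of mitochondrial proteins mostly had higher signals with RD, in contrast to the subunits. Of 11 such regulators at or above the floor, 10 had a higher and 1 a lower signal, with a median log2 difference of 0.52. Of all named genes, 50.1% were lower. Among the 10, ESRRA (0.077), TFAM (0.085) and GABPA (0.15) lay within 1 SD between bright probe sets (0.29) of 0. PPARGC1B, at 75.1 and 92.9, was just above the floor. The mitochondrial RNA polymerase gene POLRMT was read at 458.9 in control and 995.4 in RD cells (2.17-fold higher) and was the only one past 2-fold (12.1% of all named genes were). Because their motifs were searched, the genes of 3 factors are named too, chosen after their values were seen. NRF1 was at 408.7 and 585 (1.43 of control), YY1 at 7445.7 and 11286.2 (1.52 of control) and GABPA, an ETS factor, at 817.9 and 909.2 (1.11 of control). TFB1M, at 0.592 of control, was the lower one. Of 7 genes of matrix quality control at or above the floor, 3 were lower and 4 higher, 2 of them at least 2-fold (against 12.1% of all named genes). LONP1, a protease that degrades matrix proteins, was read at 1084.3 and 2350.1 (2.17-fold higher), and the inner-membrane protease gene YME1L1 at 8760 and 17909.4 (2.04-fold higher). CLPP, the peptidase that removes damaged NADH module subunits, was at 2925.2 and 2923.4, nearly unchanged though counted as lower. HSPE1, the small partner of the matrix chaperonin, was at 0.683 of control. CLPX and HSPD1 of the same list were higher, at 1.70 and 1.30 of control.

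**Figure D4:**
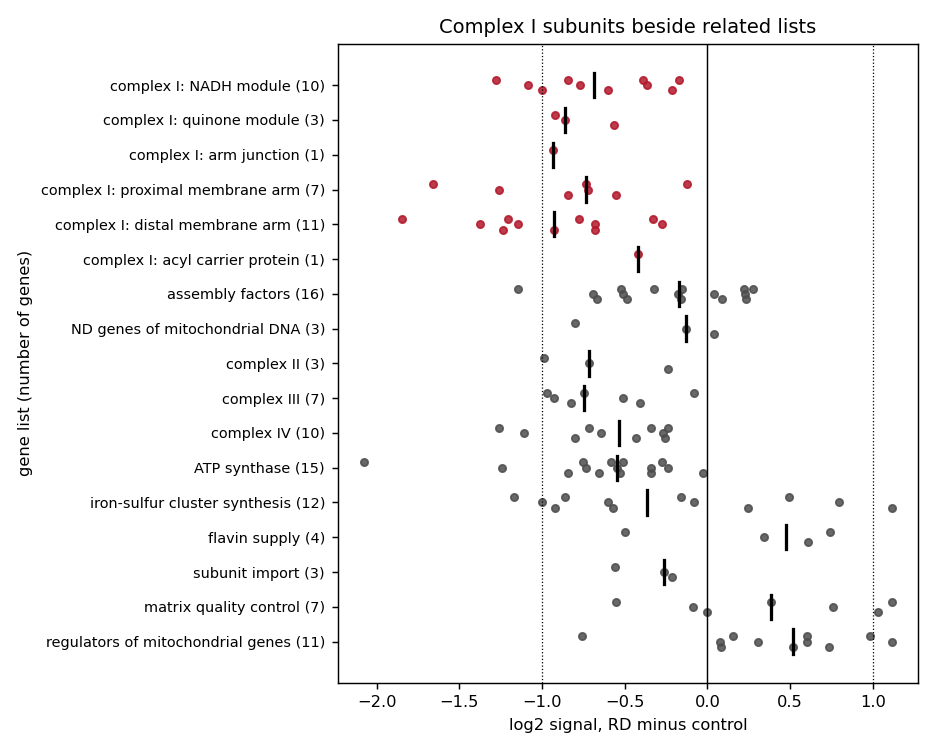
Difference in log2 signal (RD minus control, horizontal) for single genes that reached the floor, arranged by list (gene numbers in brackets). Red points are complex I subunits by place in the enzyme, dark points are other lists, black bars are medians and dotted lines mark 2-fold; the medians of the subunit groups lie between -0.42 and -0.94, that of the assembly factors at -0.17 and that of the regulators at 0.52.

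The promoters of the subunit genes were searched for 7 motifs in the windows from 250 bases before to 50 after each start site (RefSeq, GRCh38.p14), of which 31 of the 33 genes had at least 1. YY1 and GABPA have long been studied as regulators of respiratory genes, and NRF1 takes its name from them. The YY1 motif AAGATGGC was found in 22.6% of the 31 genes, against 3.52% of all 27305 genes with a window and 6.34% of the 10415 measured at or above the floor. The NRF1 motif was found in 19.4%, against 6.98% and 12.9%. The ETS motif CCGGAAG was found in 16.1%, against 12.2% and 21.8%. The SP1 motif GGGCGG was found in 67.7% (48.3% and 74.4%), CCAAT in 22.6% (39.7% and 43.0%), the cyclic AMP response motif TGACGTCA in 6.45% (2.25% and 3.67%) and the ATF4 motif TGATGNAAC in 3.23% (0.978% and 0.720%). Members were chosen by name, so these shares describe the family and carry no test.

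All 7 matches to the YY1 motif lay between 10 and 25 bases after the start site, in the same orientation. The sites are shown with their surroundings, 30 bases each, because of this shared place. Capitals mark the motif.
NDUFA3, chr19:54102865-54102894, plus strand: ccgcggagacaAAGATGGCtgcgagtaagt
NDUFB8, chr10:100529836-100529865, minus strand: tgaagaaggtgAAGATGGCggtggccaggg
NDUFA9, chr12:4649113-4649142, plus strand: gattgtgggaaAAGATGGCggctgccgcac
NDUFS7, chr19:1383913-1383942, plus strand: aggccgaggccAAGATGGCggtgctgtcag
NDUFA7, chr19:8321343-8321372, minus strand: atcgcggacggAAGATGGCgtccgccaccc
NDUFA6, chr22:42090729-42090758, minus strand: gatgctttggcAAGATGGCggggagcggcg
NDUFS4, chr5:53560649-53560678, plus strand: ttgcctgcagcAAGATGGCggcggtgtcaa
Each motif contains an ATG, so its letters can also be those around a start codon. The 7 genes with a YY1 match had log2 differences from -1.66 (NDUFA3) to -0.39 (NDUFS4) and a median of -0.92, and the others with a window had a median of -0.77.

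The NRF1 motif matched 10 times in 6 genes, mostly upstream of the start site, and the match nearest to it is shown for each gene. In NDUFA8, 2 matches overlap.
NDUFA3, chr19:54102772-54102801, plus strand: gtgctccaggGCGCACGCGCagccctggga
NDUFA9, chr12:4649024-4649053, plus strand: ttcttggttaGCGCTTGCGCagacaggcga
NDUFA12, chr12:95003794-95003823, minus strand: acctagctctGCGCACGCGCagagccacca
NDUFA8, chr9:122159758-122159787, minus strand: ggatgcgcatGCGCAGGCGCcgtgtggcac
NDUFA11, chr19:5903869-5903898, minus strand: ccggtccccgGCGCGTGCGCgcgatccatg
NDUFB4, chr3:120596318-120596347, plus strand: cctcagaatcGCGCAGGCGCaattgtgccc
Genes with an NRF1 match had a median log2 difference of -0.75 and the others with a window one of -0.84. NDUFA3 and NDUFA9 held both motifs. Neither difference between genes with and without a motif was tested.

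The 31 members with a RefSeq window lie on 16 chromosomes, with the most, 6, on chromosome 19. These 6 genes (NDUFB7, NDUFA3, NDUFA13, NDUFS7, NDUFA7 and NDUFA11) had a median log2 difference of -1.09 and 3 were at least 2-fold lower, whereas the other 27 members, 2 of them without a window, had a median of -0.74. Over the 760 measured genes of chromosome 19, the median log2 difference was 0.0018, with 12.6% at least 2-fold lower.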

How the data were processed

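Gene expression had been measured on 1 Affymetrix HG-U133 Plus 2.0 array of control PC-3 cells and 1 of RD-treated PC-3 cells. The values deposited by the authors are linear intensities, produced by MAS5 per the labels. Not given in the sources used here were the MAS5 version, scaling target and genome build. Trimmed means of the arrays (without the highest and lowest values) were 495.8 and 495.9. MAS5 subtracts mismatch signals, which makes dim signals noisy.

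Signals were compared as log2 differences (RD minus control), without an offset and without scaling them again. Gene names came from the platform annotation, and updating them by RefSeq (GRCh38.p14) changed 0 symbols. Of several probe sets of a gene, the one with the highest mean log2 signal was taken. A gene was counted as lower or higher from a 2-fold difference on, provided that its higher signal reached the floor (66.9). Where 1 signal lay under the floor, the fold is a lower bound against it. Members and lists were chosen with earlier results of these data known. The text accounts for every member and names those past 2-fold, up to 2 at each end of a module, and up to 3 genes past 2-fold in each direction of other lists. Genes named beyond this were chosen after their values were seen. The alternatives were median centring, quantile normalization, 17.1 (the 25th percentile) added to all signals, a gene's median probe set, probe sets without shared-sequence suffixes, the floor left out or set to the 75th percentile, signals raised to the floor, and thresholds of 1.5-fold and 3-fold. The calculations were tested on simulated data. Python 3.11.15, numpy 2.4.6, pandas 2.3.3, scipy 1.17.1 and matplotlib 3.10.9 were used.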

Additional observations from a re-analysis of the deposited data

How the results depend on the processing

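The median log2 difference of the subunit genes was negative under every alternative that was run, between -0.82 (centring) and -0.65 (probe sets that lack a shared-sequence suffix, 24 genes), against -0.78. The latter alternative put the NADH module at -0.43 and the distal membrane arm at -1.17 (5 genes). It counted 6 genes as at least 2-fold lower, against 13.9% of all named genes, and 1 (NDUFA11) as higher. The -0.43 was the value of NDUFA2, then read by a dim probe set at 72.2 and 53.7. In the distal arm, dim probe sets then read NDUFB1 (125.1 and 105) and NDUFB7 (136.2 and 51.8). The dim probe set of NDUFA11 was at least 1.59-fold higher against the floor. Taking each gene's median probe set put the NADH module at -0.55 and the distal arm at -0.78 and counted 1 gene (NDUFA5, at 1.12) as higher. NDUFA5 was counted through a dim probe set that was at least 1.32-fold higher against the floor. At thresholds of 1.5-fold and 3-fold, 23 and 2 genes were lower, respectively. Quantile normalization and the offset each gave 9 lower genes in place of 10, and NDUFV2 stood at the 2-fold line. Of 255 values of single genes under the alternatives, 245 moved by less than the SD between bright probe sets (0.29) and 10 moved further. Many of the 245 could not move, so this count does not measure stability. All 33 genes were above the 75th percentile on both arrays, so the floor settings left every value as it was. The 14 genes with 1 probe set could not move by the median over probe sets. Nor could the 15 whose brightest probe set has no suffix move without suffixes. Above 0 were 4 values, namely NDUFA11 (2.21) without suffixes and NDUFA5 (1.12), NDUFA7 (0.65) and NDUFS4 (0.05) by the median over probe sets. Each drew on a dim probe set that reached the floor only with RD, where the filter fixed the direction. The median of the assembly factors lay between -0.21 and -0.11 under these alternatives. Leaving out genes no longer counted as subunits was not run, since no probe set here was paired with them. No paired analysis was possible because each condition had 1 array. The number of arrays limits the precision.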

Other observations

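Some noncoding neighbours of subunit genes had single-gene probe sets and belong to no comparison above. NDUFV1-DT, which starts beside NDUFV1 on the opposite strand, was read at 132.4 in control and 117.2 in RD cells (0.885 of control). NDUFB2-AS1 was read at 217.9 and 186 (0.854 of control). The probe sets of NDUFV2-AS1 read 91.7 and 131.1 (1.43 of control) and 27.8 and 145.4 (at least 2.17-fold higher against the floor), whereas NDUFV2 itself was 2.00-fold lower.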
